A study of Danio rerio with 2 samples.

Results

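Closely paired open sites are accessible regions of the genome that lie at most 1000 bp from another accessible region. They were studied in sorted blood cells of the zebrafish. Peaks of both replicate lists on the 25 chromosomes were merged where they overlapped by at least 1 bp, and regions with a peak from each list were kept as shared. The members were chosen by their position in these lists, as shared regions whose nearest shared region on the same chromosome lay at a gap of 1 to 1000 bp, edge to edge. There were 1490 members among 13698 shared regions, or 10.9% (95% Wilson interval 10.4 to 11.4). Peak presence and peak edges therefore fixed the count and the gaps, which are given as a description without a test.

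The cells came from fish of the line Tg(CD41:GFP,gata1:dsRed) and were sorted as CD41+gata1-, which the labels call a hematopoietic stem cell. Green fluorescence driven by CD41 regulatory DNA marks thrombocytes as well as early blood stem and progenitor cells in zebrafish, and red fluorescence driven by gata1 marks the red cell lineage. The single group had 2 replicates, each made from 50000 cells with 11 cycles of amplification, and the sample titles carry a tag 3m that the labels do not spell out. No label says that the replicates came from different fish or different sorts, so differences between the lists may be technical. The p-values given below rest on read counts in these 2 libraries and measure no spread between fish or sorts. The peak lists carry no gene names, so the sorted cell type was not checked against marker genes.

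ATAC-seq uses a transposase that inserts sequencing adapters where DNA is not wrapped around nucleosomes, so a peak marks a stretch free of nucleosomes, such as an active promoter or enhancer. Such stretches are often bordered by well-positioned nucleosomes, and a regulatory element can show up as neighbouring openings with a nucleosome between them. Promoters that fire in both directions and enhancers beside a promoter are other known forms of closely spaced open sites.

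The lists held 33700 and 15814 peaks on the 25 chromosomes in replicates 1 and 2. Replicate 1 was 2.28 times as deep by its lowest local background, 1.32 against 0.578 extended reads. An extended read is a read as lengthened by the peak caller, here taken as 200 bp from the step of the background values. The summit pileup is the number of such reads over the highest point of a peak. No peak was narrower than 200 bp in either list. Neighbouring peaks of 1 list were never closer than 107 bp in replicate 1 and 151 bp in replicate 2, so closer openings are not visible as separate sites. Intervals on shares cover counting error only, and they take each region or pair as independent. By the rule a member always has another member beside it, so intervals on shares of members may be too narrow. The amplified reads carried no molecular identifiers.

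Close pairs were several times more common than the density of shared sites gives by itself. Consecutive members formed 758 neighbouring pairs. If the shared regions of each chromosome lay at random with even density, 284 members and 142 pairs would be expected, so the observed members were 5.25 times as many. Without replicate 2, when every replicate 1 peak counted as a region, the ratio was 3.30, and without replicate 1 it was 6.57. With the density of the 1 Mb bin around each region, 339 members were expected, a ratio of 4.40. With the density in the flanks at 10 to 60 kb on both sides, 457 were expected, a ratio of 3.26. These numbers are closed-form expectations and no test was made on them. Assembly gaps and stretches where reads cannot be placed were not taken into account.

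The share of paired regions hardly followed the crowding of the surroundings. Among 3498 shared regions with no other shared region in the flanks, 359 were paired, or 10.3% (95% Wilson interval 9.30 to 11.3). With 2 other regions in the flanks the share was 11.5% (10.4 to 12.7), and with 5 or more it was 12.5% (10.4 to 14.9). With 3 and 4 regions it was 10.8% (9.39 to 12.3) and 11.4% (9.61 to 13.6). The flank density itself predicts 3.92% for 2 regions, 5.82% for 3, 7.69% for 4 and 10.8% for 5 or more. A flank count of 0 sets the expected share to 0, and low counts measure density only roughly, so no size of the excess is read from the sparse classes. At 5 or more flanking regions the expected share lay inside the interval of the observed one. Regions sorted by a high count may have their density overstated, so no lack of an excess is read from this class.

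**Figure D1:**
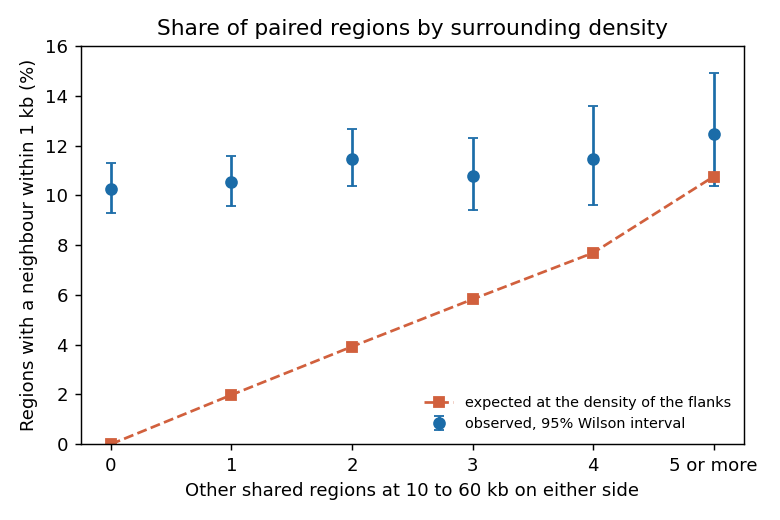
Share of shared regions with another shared region within 1 kb (y axis, percent) by the number of other shared regions at 10 to 60 kb on both sides (x axis). Blue points are observed shares with 95% Wilson intervals, from 10.3% at 0 to 12.5% at 5 or more; orange squares are the shares expected from the flank density, which rise to 10.8%.

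Most members stood in plain pairs. The 1490 members fell into 732 runs, in which each region lies at most 1000 bp from the next. Of these runs, 707 held 2 regions, 24 held 3 and 1 held 4. A peak seen in a single list lay inside the gap in 15 of the 758 pairs, in 13 cases from replicate 1 and in 2 from replicate 2, with a fold of at most 7.61. For nearly all pairs the gap was thus free of any called peak in both lists.

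The gaps were concentrated at short distances. The median gap was 256.5 bp, with quartiles of 166 and 436 bp and a range of 75 to 999 bp. Gaps of 101 to 300 bp made up 60.6% of the pairs (459 of 758, 95% Wilson interval 57.0 to 64.0). In the interval of 101 to 200 bp, 298 pairs stood against 14.3 expected for even placement and 23.4 at the flank density, ratios of 20.9 and 12.7. At 201 to 300 bp there were 161 pairs, 6.90 times the number expected from the flanks, and at 301 to 400 bp there were 82, or 3.52 times.

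The excess was small towards the 1000 bp limit when set against the flanks, and it was larger when set against even placement. Gaps of 701 to 800, 801 to 900 and 901 to 1000 bp were found 26, 32 and 26 times. These counts were 1.13, 1.40 and 1.14 times those expected from the flank density. They were 1.83, 2.26 and 1.84 times those expected for even placement. Just beyond the limit, neighbours at 1001 to 2000 bp numbered 187 against 224 expected from the flanks, a ratio of 0.833 (1.33 against even placement). At 2001 to 5000 bp there were 549 against 633 expected from the flanks, a ratio of 0.868, and at 5001 to 10000 bp that ratio was 1.23. With a largest gap of 500 bp, 1187 regions qualified and the ratio to even placement was 8.33. In 50 bp steps, the fullest interval was 151 to 200 bp with 187 pairs, followed by 111 pairs at 101 to 150 bp, 92 at 251 to 300 bp and 69 at 201 to 250 bp. The smallest gap that each list allows, 107 and 151 bp, falls into the fullest intervals, and its part in the shape was not tested.

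**Figure D2:**
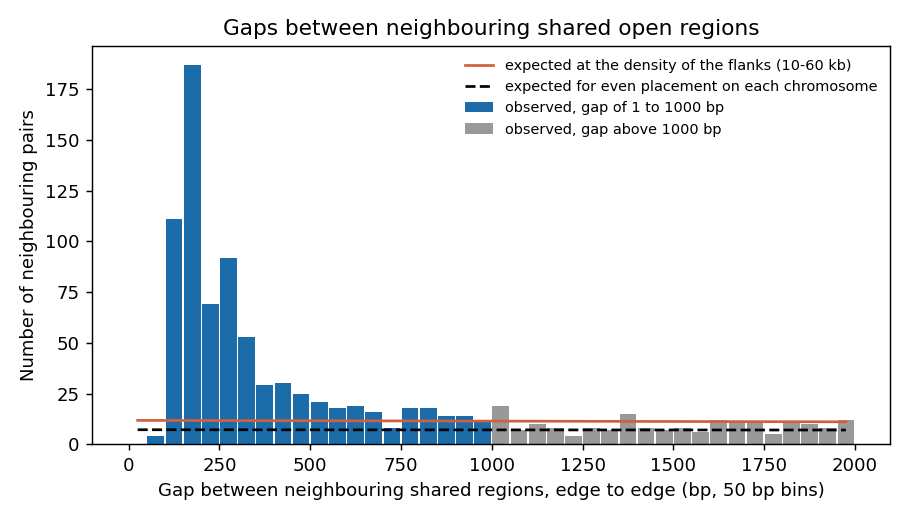
Number of neighbouring pairs of shared regions (y axis) by the gap between their edges in 50 bp bins (x axis, bp). Blue bars are the 758 pairs at 1 to 1000 bp and grey bars are wider neighbours; the solid line is the number expected from the flank density and the dashed line that for even placement. The bars peak at 187 pairs for 151 to 200 bp and come down near the solid line towards 1000 bp, still above the dashed one (12 pairs against 7.08 at 951 to 1000 bp).

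Summit distances were spread in much the same way in both lists. The median summit-to-summit distance was 659 bp in replicate 1 (quartiles 507 and 919) and 638 bp in replicate 2 (505 and 900.5). Distances of 401 to 600 bp accounted for 38.4% of the pairs in replicate 1 (291 pairs, 95% Wilson interval 35.0 to 41.9) and 40.4% in replicate 2 (306 pairs, 36.9 to 43.9). The shortest distance was 303 bp in replicate 1 and 295 bp in replicate 2. The minimum width and gap of the lists bear on the short distances, and their part was not tested.

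The distances of the same pair in the lists differed by a median of 42 bp, and in 57.5% of the pairs by at most 50 bp (436 of 758, 95% Wilson interval 54.0 to 61.0). In 78.6% the difference was at most 100 bp. Across the 758 pairs the Spearman correlation of the distances was 0.894 and the Pearson correlation 0.92. Pairs are not independent replicates. The rule itself bounds these differences, since peaks of both lists overlap in each region of a pair, so the closeness of the distances is a description and no evidence of agreement. The summit did not lean to the partner. It was nearer the inner than the outer edge in 50.0% of cases in replicate 1 (748 of 1497, 95% Wilson interval 47.4 to 52.5) and in 48.6% in replicate 2 (729 of 1499, 46.1 to 51.2). The median summit stood 159 bp from the inner and 158 bp from the outer edge in replicate 1, and 140.5 and 138.5 bp in replicate 2.

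**Figure D3:**
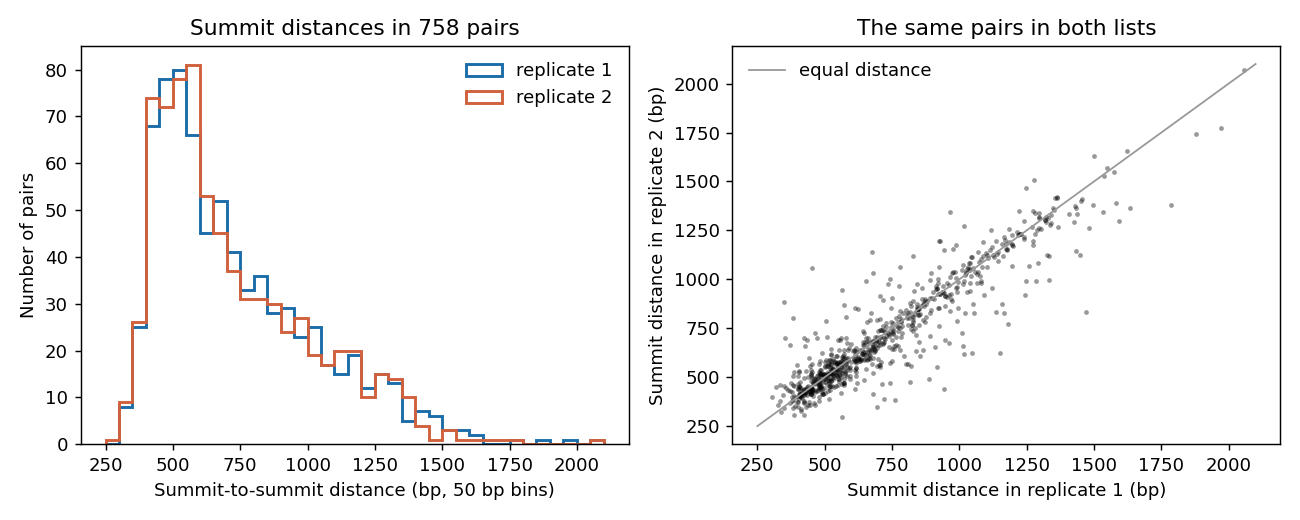
Left, number of pairs (y axis) by summit-to-summit distance in 50 bp bins (x axis, bp) for replicates 1 and 2. Right, the distance in replicate 2 against that in replicate 1, a point for each of the 758 pairs, with the line of equal distance; the medians are 659 and 638 bp and the Spearman correlation is 0.894.

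Each list alone held more close neighbours, and the other list recovered part of them. Replicate 1 had 2900 neighbouring peaks at gaps of up to 1000 bp. Both peaks were found in replicate 2 in 1187 of these cases, or 40.9% (95% Wilson interval 39.2 to 42.7), as separate regions in 732 cases and joined into 1 region in 455. A single peak was found in 1181 cases and neither in 532. For replicate 1 neighbours at 1001 to 5000 bp, both were found in 21.4% (20.0 to 22.9), and beyond 20 kb in 15.1% (14.5 to 15.6). The median pileup of the replicate 1 peaks was also higher in close neighbours, 21 extended reads against 19 and 14, and the part of this in the recovery was not tested.

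Counted as separate regions only, the close replicate 1 neighbours were recovered in 25.2% of cases, near the 21.4% at 1001 to 5000 bp. In the shallower replicate 2, close neighbours numbered 1265, and both peaks were found in replicate 1 in 71.8% (95% Wilson interval 69.2 to 74.2), against 82.2% at 1001 to 5000 bp (79.5 to 84.6). As separate regions both were found in 58.3% of the close cases, below the 82.2%, where none were joined. This share rose with the gap, from 43.3% at 1 to 200 bp and 58.2% at 201 to 400 bp to 77.5% at 401 to 1000 bp. For replicate 1 neighbours the shares at these gaps were 23.1%, 28.6% and 24.1%. The lists thus differed in the direction of this comparison. Some openings that 1 list separates were 1 peak in the other. A total of 430 shared regions held 2 peaks of replicate 1 under a single peak of replicate 2, with a median gap of 148 bp between the 2 peaks. The reverse was seen in 153 regions, with a median gap of 186 bp. The 148 bp lies below 151 bp, the smallest gap between neighbouring peaks of replicate 2. The part of this limit in the joining was not tested. These 583 split regions might have given members if both lists had separated them, which was not computed. Separation in both lists need not do so, since 15 shared regions held several peaks of each list. Of the 583 split regions, 26 were members through a further neighbour.

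Members had higher summits than other shared regions, on a higher background, and so a lower fold. The median summit pileup was 32 extended reads in replicate 1 (quartiles 21 and 50) against 27 at the 12208 other shared regions (18 and 43). In replicate 2 it was 17 (12 and 25) against 13 (10 and 20). The quartile ranges overlapped widely in both lists. For the local background, in extended reads, replicate 1 had a median of 3.37 at members and 2.18 elsewhere, and replicate 2 had 1.72 and 1.02. Above the lowest background of the list, that is 2.05 against 0.86 in replicate 1 and 1.14 against 0.442 in replicate 2, more than double in both. Regions next to another at 2001 to 5000 bp, members not removed, had median pileups of 33 and 16 in replicates 1 and 2. Their median backgrounds were 3.36 and 1.68, so neither trait was particular to gaps under 1 kb.

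The fold enrichment, the ratio of summit pileup to local background that the authors' peak caller wrote, had a median of 7.37 at members and 8.70 at the others in replicate 1. In replicate 2 it was 6.67 and 6.97. Regions next to another at 2001 to 5000 bp had median folds of 7.66 and 6.21 in replicates 1 and 2. A lower fold was thus not particular to gaps under 1 kb either. All background values above the lowest of a list were multiples of 0.02, the step that a 200 bp read makes in a 10 kb window. Read length and window were inferred from this step, which other combinations could also give. A window of 10 kb is wide enough to hold the partner's reads. The lowest value was held by 18 members in replicate 1 (1.21%) and 7 in replicate 2 (0.47%), against 11.3% and 10.7% of the other shared regions. The partner's part in the lower fold was not tested.

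**Figure D4:**
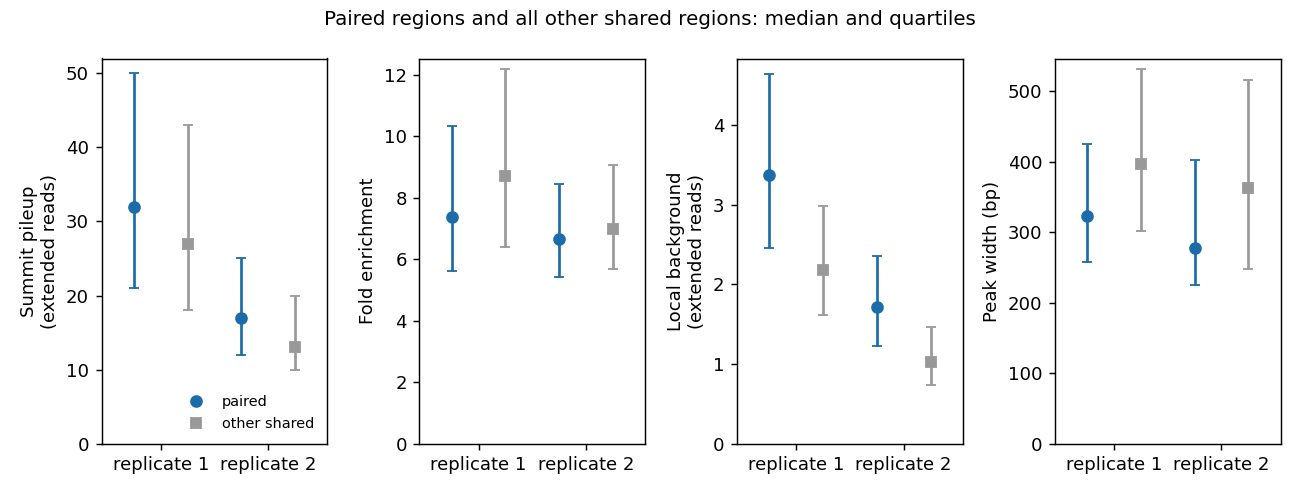
Median (symbol) and quartiles (bars) of summit pileup, fold enrichment, local background and peak width (y axes, units as labelled) for the 1490 paired regions (blue circles) and 12208 other shared regions (grey squares) in each replicate. Paired regions are higher in pileup and background and lower in fold and width in both replicates, with overlapping quartile ranges.

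Whether members counted as strong or weak sites depended on the measure. Ranked by fold in replicate 1, members made up 18.5% of the 1370 weakest shared regions (95% Wilson interval 16.5 to 20.6) and 5.84% of the 1370 strongest (4.72 to 7.21). Ranked by summit pileup in the same list, they made up 4.67% of the 1370 lowest (3.68 to 5.92) and 13.1% of the highest (11.5 to 15.0). Replicate 2 gave the same reversal, with 15.0% and 7.81% by fold and 3.07% and 16.4% by pileup.

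Members were narrow. Their median peak width was 323.5 bp in replicate 1 against 397 bp at other shared regions, and 277 against 362 bp in replicate 2. Regions next to another at 1001 to 2000 bp, members not removed, had 347.5 and 303 bp in replicates 1 and 2. That was near the 348 and 305 bp of pairs at gaps of 501 to 1000 bp. The shared regions were then divided into 5 classes of equal size by fold. In the weakest class by replicate 1 fold the medians were 256 and 303 bp, and in the strongest 387 and 463.5 bp. In replicate 2 they were 233 and 276 bp in the weakest and 371 and 525 bp in the strongest class. Members were narrower in each of the 5 fold classes of both lists. Because edges enter the rule, and wide peaks join their neighbours, this is a description of the choice as well as of the sites. The median pair covered 1073.5 bp from outer edge to outer edge, with a range of 604 to 2976 bp.

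Both regions of a pair were more often high by pileup than those of far neighbours, and less often high by fold. Both regions exceeded the median pileup of all shared regions in 292 of the 758 pairs in replicate 1, or 38.5%, against 23.4% of neighbours more than 20 kb apart. In replicate 2 the shares were 48.9% and 18.8%. By fold, both regions exceeded the median in 9.50% of the pairs against 27.2% of the far neighbours in replicate 1, and in 18.6% against 26.9% in replicate 2. The levels of single members bear on these shares. Their median pileups of 32 and 17 lay above the 27 and 14 of all shared regions. Their median folds of 7.37 and 6.67 lay below 8.59 and 6.94. The shares alone thus do not show that high summits pair up. The Spearman correlation of the left with the right pileup was 0.355 in replicate 1 and 0.501 in replicate 2. Neighbours at 2001 to 5000 bp had correlations of 0.416 and 0.504, and those at 5001 to 20000 bp 0.0312 and 0.0287, so the relation was not particular to gaps under 1 kb and was near 0 beyond 5 kb.

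The median background fell at the same distance, from 3.36 extended reads at 2001 to 5000 bp to 2.24 at 5001 to 20000 bp in replicate 1. If the background windows span 10 kb, a pair of sites within 5 kb lies in shared ones. A peak must rise above that background to be called. The part of this calling step in the correlation was not tested. For fold the left and right values of a pair had Spearman correlations of -0.25 and -0.08 in replicates 1 and 2. Neighbours at 1001 to 2000 bp had -0.38 and -0.177, and those at 2001 to 5000 bp -0.0477 and 0.00216. A negative relation by fold was thus not particular to gaps under 1 kb.

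Within a pair the strengths were moderately unequal. The fold of the stronger region was a median of 1.62 times that of the weaker in replicate 1 and 1.39 times in replicate 2, or 0.70 and 0.47 on the log2 scale. Neighbours at gaps above 1000 bp differed by 0.61 and 0.46 on this scale. In replicate 1, 244 pairs differed by at least 1 on the log2 scale (32.2%), and in replicate 2 113 pairs did (14.9%). The largest ratio was 6.38 in replicate 1 and 4.48 in replicate 2. Neither side was favoured, with the right region stronger in 50.3% of untied pairs in replicate 1 (95% Wilson interval 46.7 to 53.8) and 52.3% in replicate 2 (48.7 to 55.9). The stronger region was also the wider in 74.1% of pairs in replicate 1 (70.8 to 77.1), against 62.1% of wider-spaced neighbours (61.3 to 62.9), and in 70.2% (66.8 to 73.4) against 66.6% (65.8 to 67.4) in replicate 2, where the intervals overlapped.

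The lists mostly named the same stronger region. Among 742 pairs without a tie, 555 had the same stronger side in both, or 74.8% (95% Wilson interval 71.6 to 77.8). The share at gaps above 1000 bp was 76.2% (75.4 to 76.9), so agreement by fold at close range was near that between wider neighbours. It was 78.8% at gaps of 1 to 200 bp (73.8 to 83.1) and 70.9% at 201 to 500 bp (65.5 to 75.9). Across the 758 pairs, the log2 ratios of the lists had a Spearman correlation of 0.724 and a Pearson correlation of 0.743, against 0.725 and 0.744 for wider neighbours. With summit pileup as the strength, close pairs had the same stronger side in 78.0% of cases, against 82.1% of all wider neighbours. The Spearman correlation was 0.721 against 0.807. Neighbours at 1001 to 2000 bp agreed by pileup in 73.5% of cases (Spearman correlation 0.660), and those at 2001 to 5000 bp in 76.0% (0.695). Lower agreement by pileup was thus not particular to gaps under 1 kb. Agreement grew with the inequality. Pairs with a log2 ratio of up to 0.25 in replicate 1 agreed in 53.4% of cases (45.3 to 61.3), those from 0.5 to 1 in 76.1% (70.2 to 81.0), and those above 1.5 in 95 of 96 cases, or 99.0% (94.3 to 99.8). Wider neighbours showed the same rise, with 55.6%, 80.6% and 97.8% in these classes, so it was not particular to close pairs.

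**Figure D5:**
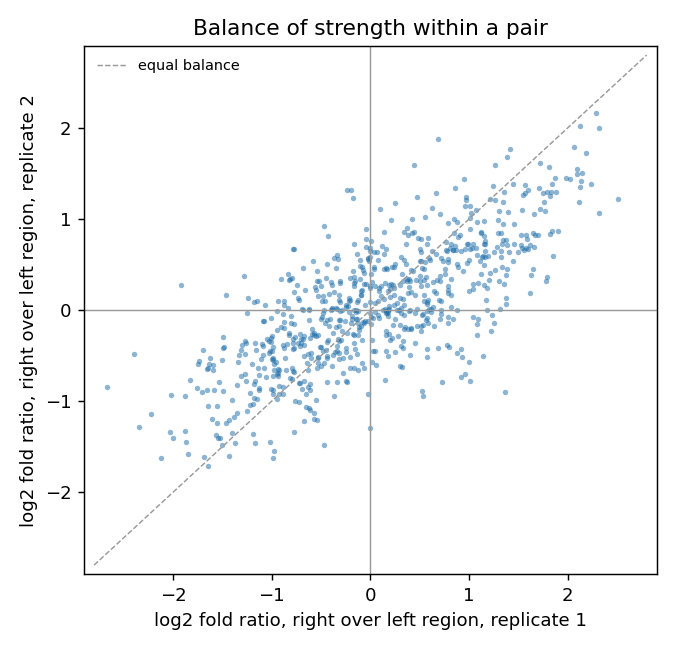
Balance of strength within each of the 758 pairs, as the log2 ratio of the fold of the right to that of the left region, in replicate 1 (x axis) and replicate 2 (y axis), with the line of equal balance. Points lie mainly in the lower left and upper right, where both lists name the same stronger region (555 of 742 untied pairs).

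No pair differed in balance between the libraries past the threshold. A two-sided Fisher's exact test on the 4 summit pileups of each of 13673 neighbouring shared regions at any gap, with Benjamini-Hochberg adjustment, called 5 at an adjusted p of 0.05, or 0.0366%. None of these 5 was among the 758 close pairs. At an unadjusted p under 0.05 there were 59 close pairs, or 7.78%, and 749 of all neighbours, or 5.48%. The share was 8.56% for neighbours at 1001 to 2000 bp and 6.74% at 2001 to 5000 bp. A share above that of all neighbours was thus not particular to gaps under 1 kb. The smallest adjusted p of a close pair was 0.0996. The median pair had 106 extended reads at its 4 summits together, so smaller differences in balance may not be detectable at this depth. The test compares these 2 libraries, and it treats extended reads as independent.

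The pairs with the highest lowest fold of the 4 peaks show what a strong pair looks like. All positions are 1-based in GRCz10. The first was on chromosome 10, with regions at 39325655 to 39325951 and 39326109 to 39326431, a gap of 157 bp. Its left region had folds of 12.4 in replicate 1 and 13.8 in replicate 2, and its right region 19.1 and 13.9. The right region was thus clearly the stronger in replicate 1, while the regions were level in replicate 2 with 53 extended reads each. Its summits were 463 and 426 bp apart in the lists.

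On chromosome 13, regions at 22876566 to 22877074 and 22877226 to 22877604 stood 151 bp apart. Their folds were 12.1 and 13.6 in replicate 1 and 12.0 and 11.5 in replicate 2. This was a near-equal pair, with ratios of 1.13 and 1.04 and opposite order in the lists. On chromosome 9, the pair at 41222328 to 41222817 and 41223055 to 41223374 had left folds of 11.6 and 10.8 and right folds of 15.1 and 13.6, stronger on the right by 1.30 times in replicate 1 and 1.26 times in replicate 2. The pair on chromosome 1 at 27336856 to 27337272 and 27337722 to 27338430 had a gap of 449 bp and lowest fold 10.3. Chromosome 25 held a pair at 25338328 to 25338754 and 25339178 to 25339485, with summits 807 and 800 bp apart.

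The other 5 of these strongest pairs had lowest folds of 9.50 to 10.1. They began at 14956727 on chromosome 17, 44544619 on chromosome 2, 48488105 on chromosome 16, 34851121 on chromosome 20 and 31154676 on chromosome 7, with gaps of 161, 139, 312, 154 and 305 bp. The chromosome 17 pair had the highest summits of these 5, with pileups of 122 and 160 in replicate 1 and 56 and 67 in replicate 2. All 10 had gaps of at most 449 bp and lay in runs of 2. Both were common among all pairs, where the upper quartile of the gap was 436 bp and 707 of 732 runs held 2 regions. Across all pairs the lowest of the 4 folds had a median of 5.11, and 34 pairs had all 4 folds at 8 or more.

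The most unequal pairs, ranked by the smaller ratio of the lists, had a ratio of at least 3.30 in both lists. On chromosome 11 the right region at 30416657 to 30417080 had folds of 24.7 in replicate 1 and 19.8 in replicate 2. Its left neighbour at 30416034 to 30416265 had 5.08 and 4.41. By fold the right region was thus 4.87 and 4.48 times as strong, with pileups of 220 against 44 and 80 against 17. This balance was not called as differing between the lists (Fisher's exact test across all neighbours, adjusted p = 1). That test does not ask whether the right region exceeds the left. Chromosome 21 carried a pair at 43531492 to 43531993 and 43532146 to 43532560 with ratios of 4.37 and 4.06 and a gap of 152 bp. On chromosome 2, the pair at 7374409 to 7374938 and 7375082 to 7375612 had ratios of 4.98 and 3.99. The last 2 of the 5 began at 7234458 on chromosome 9, with ratios of 4.19 and 3.47, and at 31445129 on chromosome 23, with 4.56 and 3.30. In each of these 5 the right region was the stronger, which holds for 50.3% and 52.3% of all untied pairs.

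The pairs with the smallest p for a differing balance did not pass the adjustment. On chromosome 9, the left region at 54459377 to 54459649 had 21 extended reads in replicate 1 and 27 in replicate 2, and the right region at 54459770 to 54460054 had 57 and 14. The order of the regions was thus opposite in the lists (Fisher's exact test, p = 6.56e-05, adjusted p = 0.0996). On chromosome 7, regions at 48024909 to 48025246 and 48025360 to 48025660 had 67 and 17 extended reads in replicate 1 and 18 and 23 in replicate 2 (Fisher's exact test, adjusted p = 0.112). The third, on chromosome 4 at 4743477 to 4743863 and 4744182 to 4744435, had 107 and 20 in replicate 1 and 28 and 20 in replicate 2 (adjusted p = 0.236, Fisher's exact test). The remaining pairs of these 5 began at 15763329 on chromosome 16 and 26046488 on chromosome 4, with adjusted p of 0.265 and 0.386 in Fisher's exact test.

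The closest regions were 75 bp apart, on chromosome 10 at 37591007 to 37591390 and 37591466 to 37591868. They were weak, with pileups of 10 and 20 in replicate 1 and 8 and 6 in replicate 2. The next gaps were 78 bp, between 37941199 and 37941278 on chromosome 20, and 88 bp, between 14540168 and 14540257 on chromosome 1. These gaps are shorter than either list allows by itself, because the merged region takes its outer edges from different lists. At the other limit, the pair on chromosome 7 at 41139920 to 41140279 and 41141279 to 41141562 had a gap of 999 bp and pileups of 57 and 27 in replicate 1 and 17 and 13 in replicate 2. The pair starting at 6215642 on chromosome 19 had a gap of 995 bp, with 80 and 54 and with 48 and 22. Just outside lay neighbours on chromosome 14 from 27639861, with a gap of 1001 bp and 36 and 46 extended reads in replicate 1 and 15 and 23 in replicate 2. Those on chromosome 22 from 21095080 had a gap of 1002 bp, with 21 and 26 and with 15 and 10.

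The single run of 4 regions lay on chromosome 2 between 52954594 and 52956973, a span of 2380 bp. Its gaps were 182, 267 and 142 bp. In replicate 1 the folds from left to right were 7.06, 4.42, 3.55 and 10.3. In replicate 2 they were 6.19, 4.36, 3.87 and 6.19. The outer regions were the strongest and the inner ones the weakest in both lists. The longest run of 3 spanned 2625 bp on chromosome 16 from 15763329, with pileups of 121, 177 and 79 in replicate 1 and 34, 109 and 63 in replicate 2. Its middle region at 15764522 to 15764946 was the highest in both lists. The next run of 3, on chromosome 12 from 37122650, spanned 2579 bp with folds of 6.96, 3.72 and 9.83 in replicate 1 and 4.51, 3.96 and 8.37 in replicate 2, lowest in the middle in both.

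Paired regions occurred on every one of the 25 chromosomes, in shares of 5.63% to 14.4% of the shared regions. Chromosome 20 had the highest share, with 86 of 596 (95% Wilson interval 11.8 to 17.5), and chromosome 22 the lowest, with 20 of 355 (3.68 to 8.54). Their intervals do not overlap, but they were picked as the extremes of 25 and the difference was not tested. On every chromosome there were more members than even placement gives, by 3.13 times on chromosome 22 to 9.51 times on chromosome 4. Against the flank density the ratio ran from 1.78 on chromosome 22 to 4.67 on chromosome 20, and chromosome 4 stood at 3.31, inside the range of the others. On chromosome 4 from 27 Mb on, where shared sites are sparse, 8 of 109 were paired, or 7.34% (3.77 to 13.8), and before 27 Mb 38 of 322, or 11.8% (8.72 to 15.8). Within 1 Mb of the chromosome ends the share was 9.70% (7.84 to 11.9), close to that of the whole genome.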

How the data were processed

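ATAC-seq was done on 2 replicates of 1 group. The submitters' processing notes name the build GRCz10 and, with no role, MACS2, Picard, DESeq2, HTSeq 0.8.0, SAMtools 1.9 and Bowtie2 2.5.0. The authors deposited 1 peak list per replicate; for the read shift and the calling thresholds, settings are not given in the sources used here. The deposited fold enrichment is a ratio of summit to background, the deposited −log10 p and −log10 q are the peak caller's, and the deposited score was not used. Deposited starts, ends and summits are printed 1-based.

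The summit pileup was recovered as the whole number that gives a peak's fold and −log10 p together within 0.0002, taking fold as pileup plus 1 over background plus 1 and p as a Poisson tail. This held for 33700 and 15814 peaks, and 29 of replicate 2 had a second match. The strongest peak of a list stood for its region. Expected numbers take gaps as exponential at the stated density. Fisher's exact tests (SciPy 1.17.1, Python 3.11.15) ran over all neighbouring regions with Benjamini-Hochberg adjustment, and were tested on simulated data. Named pairs followed a fixed rule: the 10 with the highest lowest fold, 5 most unequal in both lists, 5 with the smallest adjusted p, 3 closest, 3 longest runs, and 2 pairs on each side of 1000 bp. The members, rules and settings were chosen with earlier results of these data known. Alternatives were stricter q, equal lists, reciprocal overlap, other gap limits, each list alone, other densities and other strengths. No GRCz10 genome or annotation was used here, so no gene or sequence is given.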

Additional observations from a re-analysis of the deposited data

How the results depend on the processing

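No paired analysis was possible because there is a single group. The 15 alternatives gave 79 values. Of these, 52 kept to the reported value (counts to within 1.5 times, shares and correlations inside their 95% intervals, the rest to within 1 SD between the lists) and 27 moved; none reversed, and the cause was not tested unless the setting itself gives it. Lists held to a −log10 q of 10 or more had fewer peaks and left 310 members in 158 pairs, 80.3% with the same stronger side and a balance correlation of 0.815, and lists of equal length left 992 members in 504 pairs with summit distances of 678 and 656 bp in replicates 1 and 2. Reciprocal overlap of 50% gave 628 and 606.5 bp. By construction, a largest gap of 500 bp lowered the median gap to 197.5 bp and the summit distances to 573 and 576.5 bp, at 8.33 times the expected members, and 2000 bp raised them to 310, 757 and 741 bp. Each list alone gave 2476 to 5575 members, 1265 to 2900 pairs, 3.30 to 6.57 times the expected number, median gaps of 252 to 266 bp and summit distances of 598 bp with replicate 1 and 567 bp with replicate 2. Strength as summit pileup gave 78.0% with the same stronger side, and strength as peak width a balance correlation of 0.566. The 426 pairs with a fold ratio of at least 1.5 in replicate 1 gave 87.2% with the same stronger side and a correlation of 0.812. They were chosen by 1 of the 2 ratios compared, so a rise is built into the choice. The count of pairs that differ in balance was 0 under each alternative run for it. Members exceeded the expected number under every setting run, from 3.26 to 8.33 times. That range counts as unmoved except at 500 bp because each list alone already differed by an SD of 2.31. The SDs of the ratio and the median gap were taken from the settings with each list alone. For these settings, being counted as kept therefore says little. Pairs with a partner that was not called in replicate 2, the shallower list, are not members, and the part of depth in this was not tested.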
